A study of Mus musculus with 24 samples.

Results

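A list of 43 genes of the actin cytoskeleton that are linked to serum response factor (SRF) was followed in mouse liver, and 40 of the 43 could be read. The members were named as a list, among them the gene of SRF itself, and every probe set whose annotated symbol is a member was taken, which gave 54 probe sets out of 12422 with values and 40 of the 8251 genes with a probe set of their own. Srf and Cald1 have no probe set listed in the annotation used here, and both probe sets that name Arpc1b also name a second gene, so no value is given for these 3. Of the 40, 7 are expressed mainly in smooth muscle (Acta2, Actg2, Tagln, Cnn1, Myl9, Myh11 and Des) and are set apart below.

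Liver RNA of 24 mice was hybridized to Affymetrix U74Av2 arrays, 1 mouse per array. Wild-type and PPARα-null mice were males 9 to 12 weeks old on a mixed SV129/C57BL/6 background, and the null strain lacks the nuclear receptor PPARα in all of its cells. Each genotype gave 4 groups of 3 mice: control diet at room temperature (control), control diet and a heat stress of 40 minutes at 42 °C (HS), 500 ppm of the PPARα agonist WY-14,643 in the diet for 1 week at room temperature (WY), and the same WY diet followed by the heat stress (WY+HS). The study samples these livers 4 hours after HS, while the labels list 3 sampling times without saying which one each array has, and they give a chamber of about 43 °C.

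SRF is a transcription factor that binds a short A/T-rich element, the CArG box, in front of many genes of the actin cytoskeleton and of early response genes. Its co-activators of the MRTF family are held in the cytoplasm by monomeric actin and enter the nucleus when actin is drawn into filaments, so the pathway ties the state of the cytoskeleton to the transcription of its own parts. In liver, smooth muscle isoforms mark vessel walls and activated stellate cells, while β- and γ-actin, cofilin, profilin and the thymosins are found in nearly every cell type.

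The CArG box was searched for in the promoters of the members, taken as 250 bases before to 50 bases after each annotated start (RefSeq, GRCm38.p6). Of the members, 39 are in the promoter table, and Actg2, Tagln, Myh11 and Actb are not. A perfect match, a 10-base element with 6 A or T bases at its centre whose search pattern is the same for both strands, lies in the promoter of 8 of these 39 genes (20.5%) and of 488 of all 27025 genes in the table (1.81%). The 8 are Srf, Myl9, Actg1, Myl6, Vcl, Fhl1, Fhl2 and Cnn2, and since the members were listed for their link to SRF, the share is a description of the list. Stretches of 5 of these promoters are shown because they carry the element in front of SRF's own gene, of γ-actin, and of the 3 adhesion and LIM-domain genes whose levels are described below. The sequences run 5′ to 3′ on the strand of the gene, end before its start, and have the CArG box in capitals:
Srf (chr17:46556195-46556264, minus strand): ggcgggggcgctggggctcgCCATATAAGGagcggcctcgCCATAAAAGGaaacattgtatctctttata
Actg1 (chr11:120348556-120348605, minus strand): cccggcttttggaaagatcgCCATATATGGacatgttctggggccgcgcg
Vcl (chr14:20929151-20929200, plus strand): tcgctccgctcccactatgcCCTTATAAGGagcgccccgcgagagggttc
Fhl1 (chrX:56779561-56779610, plus strand): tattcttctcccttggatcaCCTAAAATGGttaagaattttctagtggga
Fhl2, first start (chr1:43196828-43196877, minus strand): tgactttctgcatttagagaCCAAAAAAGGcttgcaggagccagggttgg
Fhl2, second start (chr1:43163963-43164012, minus strand): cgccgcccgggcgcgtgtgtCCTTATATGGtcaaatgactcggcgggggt
The Srf stretch holds 2 elements. Fhl2 holds 1 in front of each of 2 annotated starts. Among the members called with all 24 arrays in any comparison below, Fhl2 is the only one with a match in this window (Actb and Myh11 are not in the table). A match says nothing on whether SRF binds there, and no match says only that these letters are not in the window.

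Intensities were quantile normalized over the 24 arrays, and every value below a floor of 15.7 was set to that floor. A value of 15.7 therefore means a reading at or below the floor, which can be a low positive one. A gene is read from its brightest probe set. A difference was called where the Benjamini-Hochberg adjusted p of limma, fitted to log2 values of all 24 arrays and adjusted over all 12422 probe sets, was under 0.05. Intensities of different probe sets cannot be set against each other, so levels are compared only between mice. The number of arrays, 3 per group, limits the precision, and in whole liver fewer cells of a type and less RNA per cell cannot be told apart.

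Ppara itself, the target of the knockout, read 181 to 357 in wild-type mice and 103 to 210.2 in null mice, and the lowest wild-type value belongs to HS mouse 5. Whether the Ppara probe set lies in the deleted part was not tested. Mouse 5 also stood apart for members, as given below. The 9 hepatocyte genes summed to 33881 to 41687 on the 24 arrays. The skeletal muscle actin Acta1 was high on 3 arrays, which are called high-Acta1 arrays below. It read 662 in wild-type control mouse 1, 592 and 478 in null HS mice 16 and 17, and at most 29.7 in the other 21 mice. The paper proposes that SRF may account for higher muscle contraction genes, Acta1 among them, after HS in null mice. Where the Acta1 signal came from was not tested. Because this signal falls in the group with the most changes, results for HS in null mice are also given without these 3 arrays, an alternative chosen after seeing the data.

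**Figure D1:**
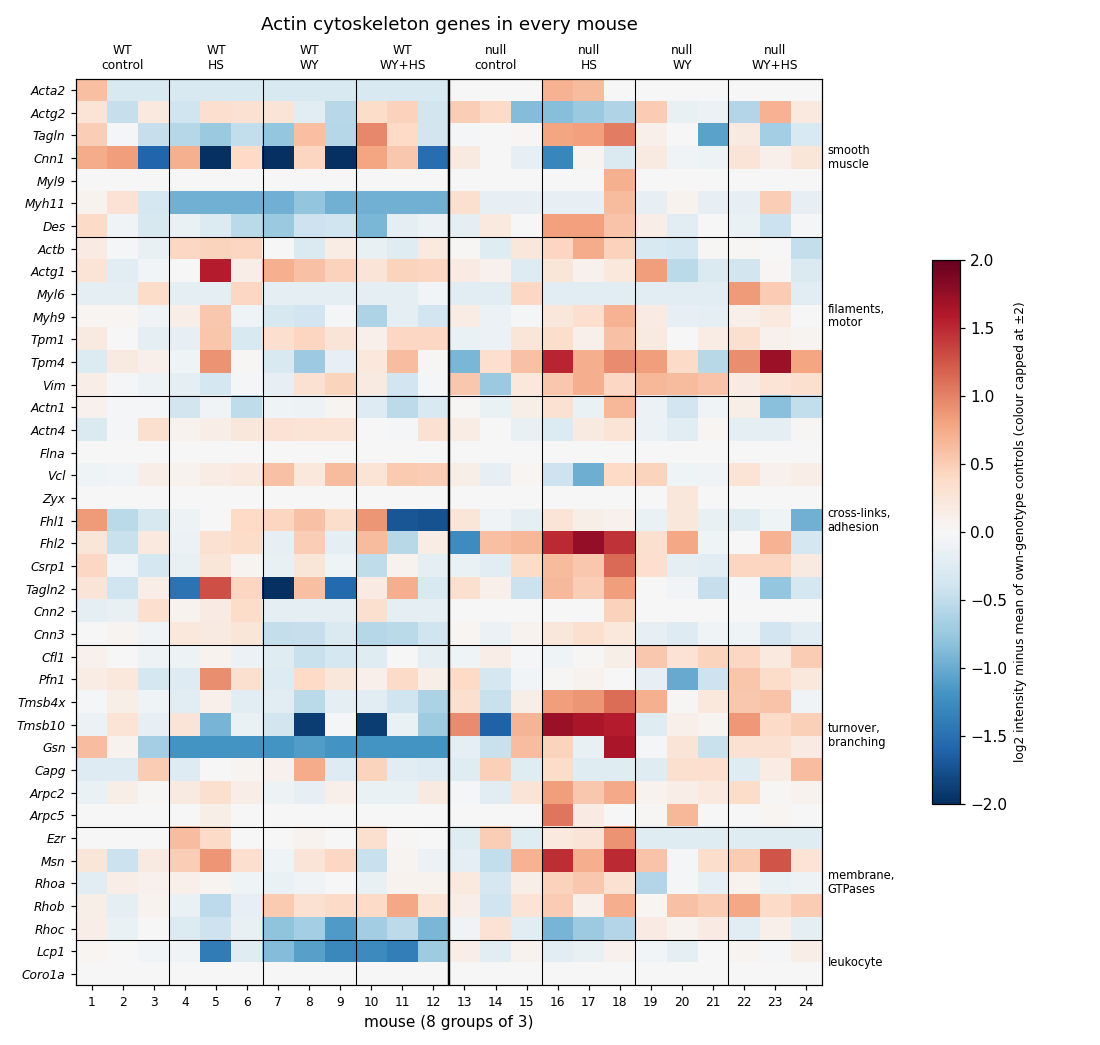
Log2 intensity of the 40 members (rows, grouped by role) in each of the 24 mice (columns), minus the mean of the 3 control mice of the same genotype. Red is higher and blue lower than control, and the colour is capped at 2 log2 units in either direction. In the 3 null HS mice (16 to 18) 26, 26 and 29 of the 40 members lie above their control mean.

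Of the 11 comparisons, HS in PPARα-null mice had the most members called as higher. It raised 6 of the 40 members (Arpc2, Tmsb4x, Msn, Fhl2, Des and Csrp1), 15.0% against 3.44% of all genes, and lowered 1 (Rhoc), 2.5% against 4.48% of all genes. The members were chosen with earlier results of these data known. The paper names Acta2, Des, Myl9 and Tpm4 among muscle contraction genes raised by HS in null mice. The shares of members here and below therefore describe the list and are no independent result. Of the members, 30 had a log2 change above 0 and 7 below, with a median of 0.31 against 0 for all genes. The median of all genes was 0 in every comparison after quantile normalization. At the floor on all arrays were 2 of the 40 members and 1454 of the 8251 genes. Such genes cannot be called or separate, which lowers the shares of all genes here and below. In 14 members (35.0%) each of the 3 HS mice lay above each of the 3 controls, against 9.93% of all genes, and in 1 member (2.5%), Rhoc, each lay below, against 10.2% of all genes. The median over the 40 members, each taken against the mean of the 3 controls of the same genotype, was 0.29, 0.11 and 0.44 on the log2 scale in null HS mice 16, 17 and 18 and lay between -0.16 and 0.08 in the other 21 mice. Outside the smooth muscle genes 5 of 33 members rose and 1 fell, with a median log2 change of 0.34.

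Of the 8 genes of filament turnover and branching 2 rose. Arpc2, which had the lowest adjusted p, is a subunit of the Arp2/3 complex that starts branches on actin filaments. It read 627, 560.3 and 772 in null controls and 1159, 942 and 1097 in null HS mice, with no overlap (1.64-fold, log2 change 0.71 ± 0.13 (SE), adjusted p = 0.00246). Tmsb4x, the thymosin that holds actin monomers in reserve, read 222, 131 and 194 in controls and 316, 329 and 386 after HS (1.92-fold, log2 change 0.94 ± 0.21 (SE), adjusted p = 0.0126). The groups were again fully separate. Without control mouse 14, the lowest of the 3, the adjusted p of Tmsb4x no longer passed. Of the other genes of filament turnover, the related thymosin Tmsb10 read 93.4, 15.7 and 77.5 in controls and 160.2, 149.8 and 145 after HS, also without overlap, but with control mouse 14 at the floor the spread was wide (log2 change 1.64 ± 0.59 (SE), adjusted p = 0.119). Gsn, the filament-severing gelsolin, read 19.1, 15.7 and 33.1 in controls and 29.3, 19.3 and 67 after HS, with the high value in mouse 18 alone (log2 change 0.64 ± 0.37 (SE), adjusted p = 0.412). Cfl1 (cofilin), Pfn1 (profilin), Capg and Arpc5 had log2 changes between -0.04 and 0.41 and none passed.

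Among the 5 genes that tie actin to membranes or are small GTPases 1 rose (Msn) and 1 fell (Rhoc). Msn (moesin), which links filaments to the plasma membrane, read 39.8, 32.3 and 73.9 in controls and 126, 75.7 and 129 after HS (2.35-fold, log2 change 1.23 ± 0.32 (SE), adjusted p = 0.0277). The lowest HS mouse lay just above the highest control. Rhoc, a small GTPase of contractile filaments, fell from 351, 453 and 319.6 to 194, 225 and 247 (1.68-fold lower, log2 change -0.74 ± 0.15 (SE), adjusted p = 0.00525). Its second probe set, which is dimmer, read 78.9, 122 and 90.4 in controls and 99.7, 59.1 and 57.9 after HS, with overlap (log2 change -0.45 ± 0.40 (SE), adjusted p = 0.747). Rhoa read 453, 315 and 437 in controls and 543, 575 and 490.0 after HS by its brightest probe set (log2 change 0.43 ± 0.15 (SE), adjusted p = 0.0913), Rhob 0.44 and Ezr (ezrin) 0.46 on the log2 scale, and none of these 3 passed.

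In the group of cross-linkers and adhesion proteins 2 of 11 members rose. Fhl2, a LIM-domain partner of SRF and the one called member with CArG boxes in the stretches shown above, read 17.9, 65.3 and 67.8 in controls and 120.2, 145 and 117 after HS (2.96-fold, log2 change 1.56 ± 0.44 (SE), adjusted p = 0.0411). All HS mice lay above all controls, and control mouse 13 lay far below the other controls. Csrp1, a LIM protein that binds α-actinin and zyxin, read 34.2, 32.2 and 48.4 in controls and 58.6, 55 and 82.2 after HS (1.71-fold, log2 change 0.77 ± 0.23 (SE), adjusted p = 0.0491). Its second probe set, dimmer and near the floor, did not show this rise and is given below. Tagln2 read 170.1, 145 and 101 in controls and 212, 191 and 243 after HS and was separate between the groups without passing (log2 change 0.66 ± 0.63 (SE), adjusted p = 0.792). Cnn3, an actin-binding calponin, lay just outside the threshold with 632, 569 and 646 against 717, 769 and 711 (log2 change 0.25 ± 0.07 (SE), adjusted p = 0.0516). Its only probe set carries the manufacturer's suffix (f) for probes shared within a gene family, and whether it also reads related genes was not tested. Actn1, Actn4, Vcl (vinculin), Fhl1 and Cnn2 did not pass, with log2 changes from -0.33 to 0.28, and Zyx and Flna were at the floor in both groups.

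None of the 7 filament and motor genes passed, although their median log2 change was 0.41. Actb (β-actin) lay just outside the threshold by its brightest probe set, with 842, 702 and 968 in controls and 1124, 1391 and 1148 after HS and no overlap (1.46-fold, log2 change 0.55 ± 0.16 (SE), adjusted p = 0.0528). Myh9, the heavy chain of non-muscle myosin, read 320.2, 267 and 282 in controls and 337, 364 and 465 after HS by its brightest probe set (log2 change 0.41 ± 0.16 (SE), adjusted p = 0.148). Its second probe set read 121, 70.3 and 109.6 in controls and 227, 229.5 and 193 after HS and passed (2.21-fold, log2 change 1.15 ± 0.24 (SE), adjusted p = 0.00866). The tropomyosins Tpm1 and Tpm4 had log2 changes of 0.34 and 1.07, vimentin (Vim) 0.56, Actg1 (γ-actin) 0.18 and Myl6 -0.21. Of the 2 leukocyte genes, Lcp1 (L-plastin) had a log2 change of -0.09 and Coro1a was at the floor on all arrays.

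**Figure D2:**
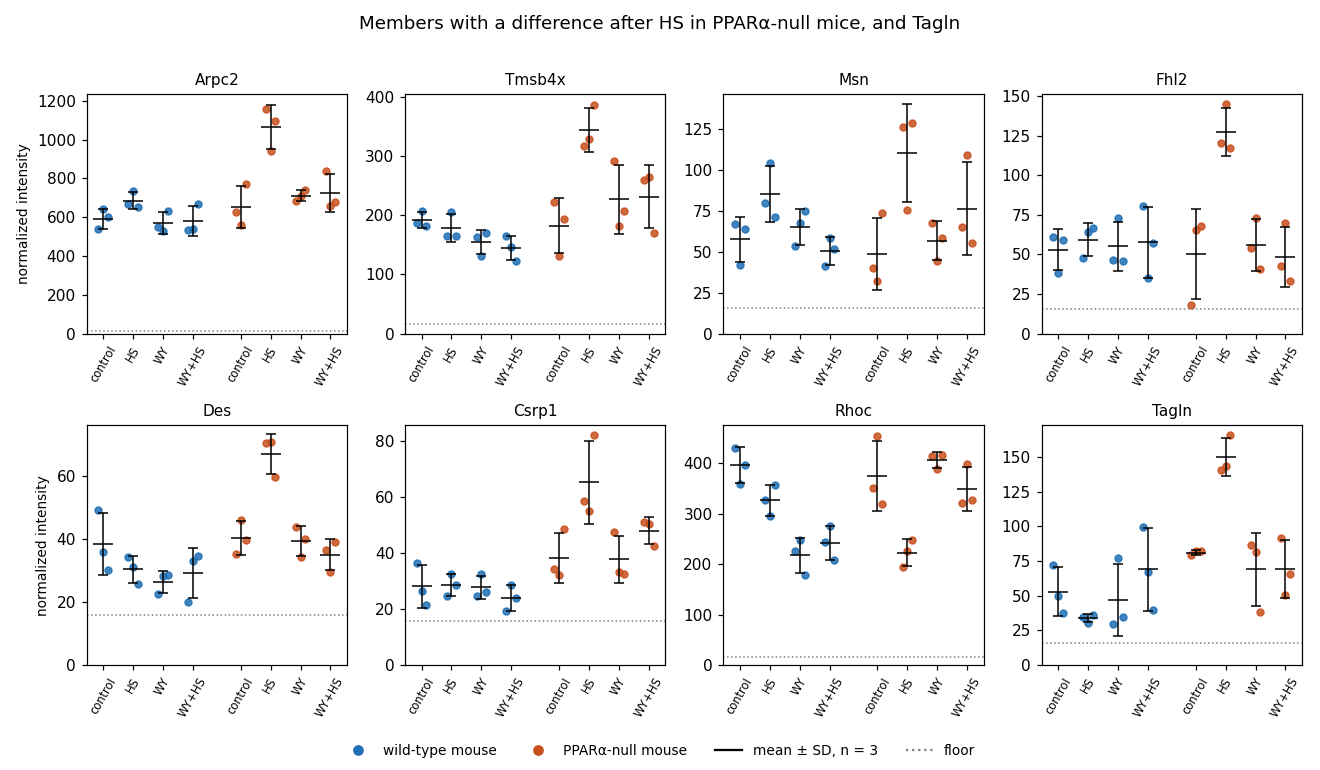
Normalized intensity (linear axis from 0) of the 7 members called for HS in PPARα-null mice, and of Tagln, in each mouse of the 8 groups. Points are mice, the horizontal mark and bar are the mean ± SD of 3 mice, and the dotted line is the floor of 15.7. In the panels of the 6 members that rose, null HS mice are the highest group, Rhoc is lower there than in null controls, and Tagln is separate from its controls without passing the threshold.

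The calls depended on single mice and on the scaling. Of the 7 calls 3 were kept without null control mouse 13 or 14 or without HS mouse 16. Leaving out HS mouse 17 or 18 kept 4. Arpc2 and Rhoc were called with any one of the 6 mice left out. With arrays scaled to a common median 4 were called, Fhl2, Tmsb4x, Msn and Rhoc, and with no scaling none was. With the null control and HS mice fitted alone none of the 7 was called, and Tagln was (log2 change 0.88, adjusted p = 0.0434). Without the 3 high-Acta1 arrays mouse 18 is the lone null HS mouse, so sizes of change are given and no calls. Arpc2 then had a log2 change of 0.76, Gsn of 1.64 and Myl9 of 0.71, and Myl9 is at the floor on every other array. In that fit the other 6 called members had log2 changes of the same sign, such as 1.12 for Tmsb4x, 1.45 for Fhl2, 0.58 for Des and -0.58 for Rhoc.

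Some markers of other cells were also higher in null HS livers, where 3.44% of all genes rose and 4.48% fell. Of 10 stellate cell and fibroblast genes 3 rose (30%), and their summed intensity was 1601 to 1921 in null controls and 2194 to 2847 after HS. Col1a1, a chain of type I collagen, read 35.5, 31.8 and 44.8 in controls and 131, 150.2 and 102 after HS (log2 change 1.77 ± 0.46 (SE), adjusted p = 0.0261). Of 9 endothelial genes 2 rose (22.2%, summed 735 to 910 and 940 to 1283). Of 11 Kupffer cell and macrophage genes 1 rose, Cd14 (9.09%), and their sums overlapped (710 to 1200 and 1029 to 1311). A single call in a list this short is already above the share of all genes. Of 11 neutrophil and lymphocyte genes 2 rose (18.2%, 636 to 798 and 872 to 1194). The last 2 were the neutrophil alarmins S100a8 and S100a9, and S100a9 was at the floor in all 3 null controls. Of 16 skeletal muscle genes 2 rose (12.5%), with sums of 375 to 451 in controls and 375 to 1493 after HS. At the floor on all arrays were 4 of the neutrophil and lymphocyte genes, 3 of the skeletal muscle genes and 1 of the macrophage genes. The 9 hepatocyte genes had no call in this comparison, nor had 7 cholangiocyte and mesothelial genes, of which 5 were at the floor on all arrays. The part of these cell types in the rise of the actin genes was not tested.

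Null mice given WY before HS had lower levels of several actin genes than null mice given HS alone. Against HS, 8 of 40 members were lower after WY+HS (20.0%, against 5.62% of all genes) and 2 were higher (5.0%, against 7.03%). In 16 members (40.0%) each WY+HS mouse lay below each HS mouse, against 12.9% of all genes, and in 5 (12.5%) each lay above, against 12.9%. This comparison shares the null HS mice with the one above, so the values are given side by side.

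Members called for both comparisons were Arpc2, Fhl2, Des and Rhoc. Arpc2 read 838, 657 and 679 after WY+HS (1.47-fold lower than after HS, log2 change -0.56 ± 0.13 (SE), adjusted p = 0.00843). Fhl2 read 42.5, 69.8 and 33.6 (2.74-fold lower, log2 change -1.45 ± 0.44 (SE), adjusted p = 0.0439). In both genes the WY+HS mice lay below every HS mouse. Rhoc moved the other way, to 322, 398 and 326 (1.57-fold higher, log2 change 0.65 ± 0.15 (SE), adjusted p = 0.00843). Des, also lower, is described with the smooth muscle genes.

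The other 6 calls were not called for HS alone against control. Cnn3 read 577, 472 and 525 after WY+HS (1.4-fold lower than after HS, log2 change -0.49 ± 0.07 (SE), adjusted p = 0.000484), and 2 of these 3 values also lie below every null control. Actb read 840.4, 824 and 595 by its brightest probe set (1.63-fold lower, log2 change -0.71 ± 0.16 (SE), adjusted p = 0.00974), with the second probe set going the other way as given below. Cfl1, the cofilin that severs old filaments, read 529, 572 and 614 after HS and 753, 648 and 802 after WY+HS (1.28-fold higher, log2 change 0.36 ± 0.09 (SE), adjusted p = 0.021). Rhoa, the GTPase that drives stress fibre formation, read 417, 360.5 and 370.1 after WY+HS by its brightest probe set (1.4-fold lower, log2 change -0.49 ± 0.15 (SE), adjusted p = 0.04). Actn1, an α-actinin that bundles filaments, read 217, 160.4 and 276 after HS and 189.7, 98 and 124 after WY+HS, and here the groups overlapped (log2 change -0.69 ± 0.21 (SE), adjusted p = 0.0398). Ezr read 21.5, 22.3 and 35 after HS and was at the floor in all 3 WY+HS mice, so it was at least 1.63-fold lower (log2 change -0.70 ± 0.19 (SE), adjusted p = 0.0271). A group at the floor has no spread of its own, which can make this p too small. The call of Ezr was lost at both other floors, where the log2 change ran from -0.0147 to -2.43, by the methods' test, and without HS mouse 18 or any one of the 3 WY+HS mice. Without null HS mouse 16 the 10 calls became 5, and without HS mouse 17 they became 6. Without WY+HS mouse 24 there were 5 calls, and Actb, Actn1, Fhl2, Cfl1, Ezr and Rhoa were no longer among them. The fit without the 3 high-Acta1 arrays leaves 1 null HS mouse, so no calls are given from it. With arrays scaled to a common median 4 were called (Des, Cfl1, Ezr and Rhoc), and 1 with no scaling. With the compared groups fitted alone none was called.

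Markers of other cells moved in this comparison too, where 5.62% of all genes were lower and 7.03% higher. Of 11 neutrophil and lymphocyte genes 4 (36.4%) were lower after WY+HS than after HS, among them S100a8 (log2 change -2.10 ± 0.29 (SE), adjusted p = 0.000217) and S100a9 (log2 change -1.28 ± 0.11 (SE), adjusted p = 1.72e-06), and their summed intensity was 872 to 1194 after HS and 512 to 680.0 after WY+HS. Of 10 stellate cell and fibroblast genes 2 (20%) were lower, Col1a1 (log2 change -1.59 ± 0.46 (SE), adjusted p = 0.0332) and Pdgfrb (log2 change -0.52 ± 0.14 (SE), adjusted p = 0.0216), with sums of 2194 to 2847 and 1869 to 1913. Of the macrophage genes 1 was lower (Cd14, 9.09%), of the skeletal muscle genes 2 (Myh1 and Tnni2, 12.5%), and of the endothelial genes 1 was lower and 1 higher (11.1% each). Of the hepatocyte genes 1 was higher (11.1%). Lists this short put even these single calls above the share of all genes. Their part in the lower levels of the actin genes was not tested.

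WY+HS in null mice against null controls gave no call among the members, nor did WY alone. Among all genes 0.0242% were called for WY+HS and 0.0121% for WY. At an unadjusted p under 0.05 there were 4 members for WY+HS (10.0%, against 5.64% of all genes) and 3 for WY (7.5%, against 3.7%). The methods' test, an F test followed by Scheffé's test, called 0 (against 0.206%) and 1 (2.5%, against 0.133%). That 1 was Cfl1, which read 533, 616 and 547 in null controls and 816, 687 and 772 after WY (log2 change 0.42 ± 0.09 (SE), adjusted p = 0.331 by limma).

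HS in wild-type mice gave no call among the members, and 0.0485% of all genes were called. An unadjusted p under 0.05 was reached by 5 members (12.5%, against 6.06% of all genes), and the methods' test called 1, Myh11 (2.5%, against 0.17%). Actb, for example, read 566, 499 and 458 in wild-type controls and 673, 688 and 681 after HS, without overlap (log2 change 0.43 ± 0.16 (SE), adjusted p = 0.748). Arpc2 read 537, 640.5 and 599 in controls and 669, 736 and 650.4 after HS (log2 change 0.21, 95% interval -0.06 to 0.48). Tmsb4x read 188, 208 and 181 in controls and 165, 206 and 165 after HS (log2 change -0.11, 95% interval -0.56 to 0.34). Mouse 5 stood apart in several genes. Its Actg1 was 1100.0 against 366 and 406 in the other 2 HS mice, and its Lcp1 was 77.3 against 195 and 172. The count stayed at 0 without it.

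**Figure D3:**
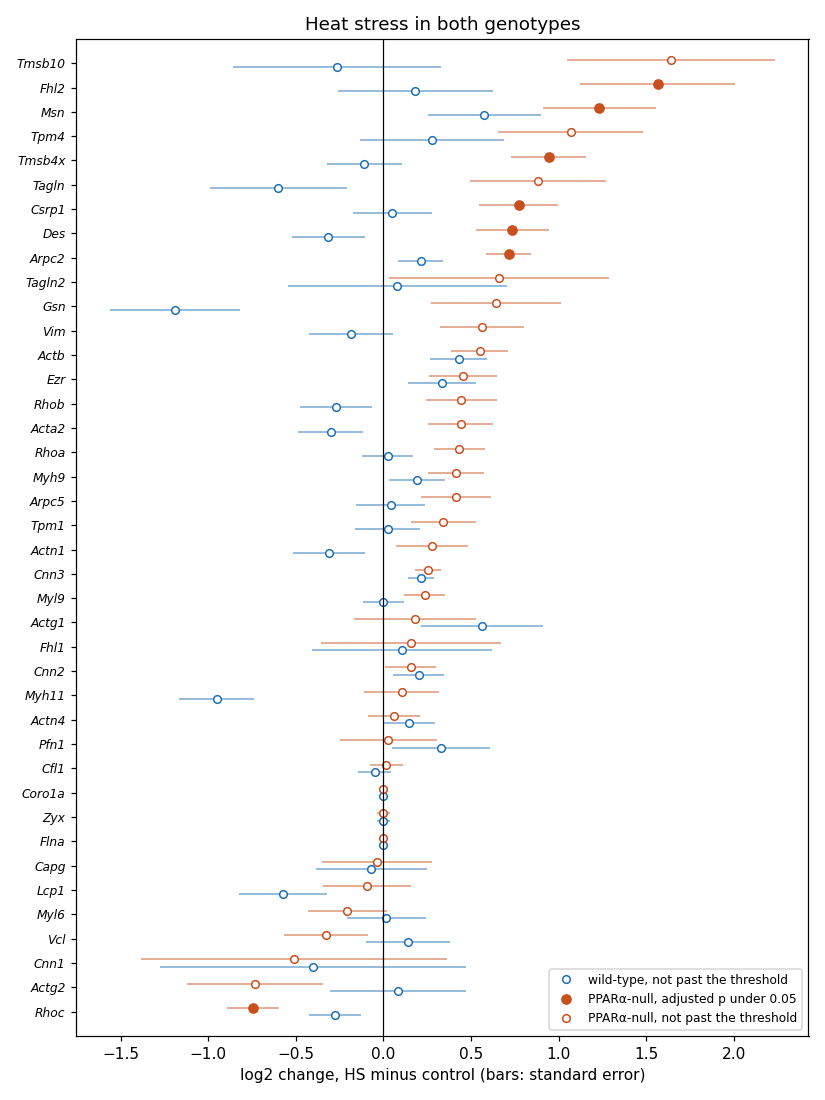
Log2 change from control to HS of each of the 40 members in wild-type (blue) and PPARα-null mice (orange), ordered by the change in null mice, with bars of 1 standard error. Filled points have an adjusted p under 0.05. The filled points are 6 orange ones to the right of 0 and 1, Rhoc, to the left, and no blue point is filled.

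Whether the HS response of the members differed between the genotypes was tested as an interaction, and none of the 40 passed (0.776% of all genes were called as higher in null mice and 1.09% as lower). An unadjusted p under 0.05 was reached by 13 members (32.5%, against 14.4% of all genes), and the methods' test called 0 (against 1.42%). The interaction of Tmsb4x was 1.05 on the log2 scale (95% interval 0.41 to 1.69, adjusted p = 0.0957). That of Des was 1.05 (0.43 to 1.68, adjusted p = 0.0892) and that of Arpc2 0.50 (0.12 to 0.88, adjusted p = 0.196). The rise of actin genes in null but not in wild-type mice is therefore not shown to be a difference between them.

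In wild-type mice WY lowered 5 of 40 members (12.5%, against 6.14% of all genes) and raised none (against 6.68%). Without control mouse 2 the 5 became 3 (Cnn3, Rhoc and Lcp1). WY+HS lowered 4 (10.0%, against 6.37%) and raised none (against 6.18%). WY+HS against WY gave no call among the members (0.315% of all genes were higher and 0.17% lower). There were 2 members at an unadjusted p under 0.05 (5.0%, against 9.27%) and 0 by the methods' test (against 0.739%).

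Cnn3 read 396, 409.5 and 374 in wild-type controls, 282, 284 and 322 after WY and 265, 272 and 299 after WY+HS, with both treated groups wholly below the controls (log2 change -0.41 ± 0.07 (SE), adjusted p = 0.0012 for WY and log2 change -0.50 ± 0.07 (SE), adjusted p = 0.00018 for WY+HS). Rhoc read 431, 359 and 396, then 227, 247 and 179 after WY (1.83-fold lower, log2 change -0.87 ± 0.15 (SE), adjusted p = 0.000658) and 243, 274 and 208 after WY+HS (log2 change -0.71 ± 0.15 (SE), adjusted p = 0.00334). The second Rhoc probe set did not pass (log2 change 0.15 ± 0.40 (SE), adjusted p = 1 for WY and log2 change 0.34 for WY+HS). Lcp1, a bundling protein mostly of blood cells, read 211, 206 and 197 in controls, 113, 96.4 and 84.1 after WY (2.11-fold lower, log2 change -1.08 ± 0.25 (SE), adjusted p = 0.00903) and 84.3, 78.7 and 124 after WY+HS (log2 change -1.13 ± 0.25 (SE), adjusted p = 0.0062). Treated and control mice were separate in each of these 3 genes. Cfl1 read 828, 776 and 727 in controls and 653, 570.4 and 606 after WY (1.27-fold lower, log2 change -0.35 ± 0.09 (SE), adjusted p = 0.0236), and was not called after WY+HS (log2 change -0.15 ± 0.09 (SE), adjusted p = 0.448). Its call for WY was kept in 5 of 14 alternative settings, against 13 for Cnn3 and Rhoc and 12 for Lcp1. It was lost with common median scaling, by the methods' test and with the compared groups fitted alone. Leaving out control mouse 1 or 2 or WY mouse 8 or 9 lost it too. With the arrays not scaled the WY changes of Cnn3 and Cfl1 turned to 0.037 and 0.14, while the median change of the probe sets above the floor rose to 0.40. Gsn was just outside the threshold, with 55, 37.6 and 22.5 in controls and 15.7, 16.6 and 15.7 after WY (log2 change -1.17 ± 0.37 (SE), adjusted p = 0.0559).

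**Figure D4:**
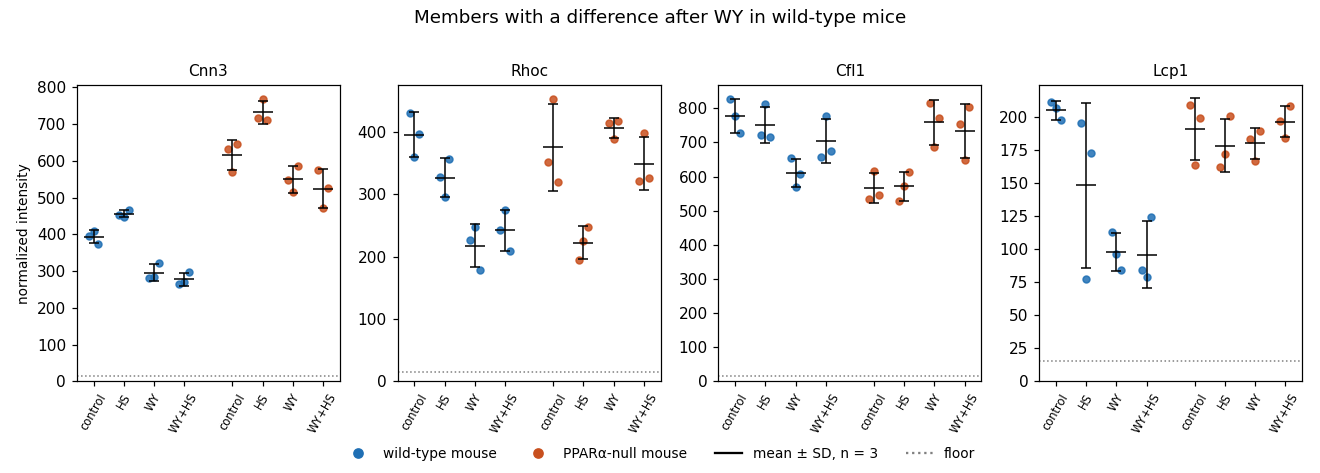
Normalized intensity (linear axis from 0) of Cnn3, Rhoc, Cfl1 and Lcp1 in each mouse of the 8 groups. Points are mice, the mark and bar are the mean ± SD of 3 mice, and the dotted line is the floor of 15.7. In wild-type mice all 4 genes are lower after WY than in controls, and in null mice the WY groups of Rhoc and Cfl1 do not fall.

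Markers of other cells were also read for WY in wild-type mice, where 6.14% of all genes were lower and 6.68% higher. Of 9 endothelial genes 2 fell (22.2%, summed 830 to 1016 in controls and 528 to 594 after WY). Of 11 neutrophil and lymphocyte genes, 4 of them at the floor on all arrays, 1 fell (9.09%, summed 581 to 776 and 459.9 to 620.1). It was the B cell gene Cd79a, which read 101, 85.7 and 68.9 in controls and 25.8, 15.7 and 39.2 after WY (log2 change -1.74 ± 0.47 (SE), adjusted p = 0.0231). Of 10 stellate cell and fibroblast genes 1 fell (10%, summed 1682 to 2015 and 1353 to 1588), which was Dcn (log2 change -0.57 ± 0.15 (SE), adjusted p = 0.0182). Of 9 hepatocyte genes 4 fell (44.4%, sums of 39986 to 40524 and 33881 to 35874), and of 11 Kupffer cell and macrophage genes none was called (857 to 1060 and 617 to 857). None was called of 7 cholangiocyte and mesothelial genes and of 16 skeletal muscle genes. In lists this short a single call is already above the share of all genes. Their part in the lower levels of Lcp1 and the other members was not tested.

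In their response to WY, 2 members differed between the genotypes, 5.0% against 2.68% of all genes (and none against 3.55% in the opposite direction). Rhoc read 351, 453 and 319.6 in null controls and 413, 388 and 417 after WY (log2 change 0.13), where it fell in wild-type mice, and the difference between the changes was 1.00 (adjusted p = 0.00698). For Cfl1 the difference was 0.77 (adjusted p = 0.00177). Both passed by the methods' test as well, 5.0% of the members against 3.87% of all genes.

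Without treatment 2 members differed between the genotypes, 1 higher in null mice (2.5%, against 0.303% of all genes) and 1 lower (2.5%, against 0.618%). Cnn3, by its f-type probe set, was 1.56-fold higher in null controls, at 616 ± 40.8 against 393 ± 17.7 (SD, n = 3, log2 change 0.65 ± 0.07 (SE), adjusted p = 0.000254). Cfl1 was 1.37-fold lower, at 566 ± 44.1 against 777 ± 50.3 (SD, n = 3; log2 change -0.46 ± 0.09 (SE), adjusted p = 0.027), and this call was lost when any one of 5 of the 6 control mice was left out. Actb lay at the threshold by its brightest probe set, with 842, 702 and 968 in null and 566, 499 and 458 in wild-type controls (log2 change 0.72 ± 0.16 (SE), adjusted p = 0.0509). The second Actb probe set was not higher in null mice, with 407, 431 and 351 in null and 472, 403 and 411 in wild-type controls. For Cnn3 every null mouse lay above every wild-type mouse over all 8 groups, with a lowest null value of 472 and a highest wild-type value of 466.

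The smooth muscle genes were dim or scattered, with Des as the one that passed for HS in null mice. Des (desmin), an intermediate filament of muscle and stellate cells, read 35.3, 46.1 and 39.7 in null controls, 70.6, 70.7 and 59.8 after HS (1.66-fold, log2 change 0.74 ± 0.21 (SE), adjusted p = 0.041) and 36.5, 29.7 and 39.1 after WY+HS (1.92-fold lower than after HS, log2 change -0.94 ± 0.21 (SE), adjusted p = 0.00743). Mouse 18, which carried no Acta1 signal, had the lowest of the 3 HS values and still lay above every control. Tagln (SM22α), an actin-binding protein of smooth muscle, read 79.3, 82 and 82.1 in null controls and 141, 144 and 166 after HS, separate but not called (log2 change 0.88 ± 0.39 (SE), adjusted p = 0.23), and 91.9, 50.7 and 65.4 after WY+HS (log2 change -1.15 ± 0.39 (SE), adjusted p = 0.0702). Across the wild-type groups its values ran from 29.7 to 99.9. The 3 wild-type HS mice (34.4, 30.7 and 36.2) lay below every wild-type control (72, 49.5 and 37.2), which did not pass (log2 change -0.60 ± 0.39 (SE), adjusted p = 1).

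Acta2 (α-smooth muscle actin) was above the floor in 3 mice only, at 29.5 in wild-type control mouse 1 and 25.4 and 24.5 in null HS mice 16 and 17. These are the 3 high-Acta1 arrays. Myl9, a myosin light chain, was above the floor in null HS mouse 18 alone (25.7). Myh11, the smooth muscle myosin heavy chain, read 32, 37.1 and 23.8 in wild-type controls and was at the floor in all wild-type HS and WY+HS mice and in 2 of the 3 WY mice, so it was at least 1.94-fold lower after WY+HS (log2 change -0.95 ± 0.22 (SE), adjusted p = 0.00676) and 1.86-fold lower after WY (log2 change -0.90 ± 0.22 (SE), adjusted p = 0.0106). These p-values rest on groups at or next to the floor, and both calls were lost with the floor at 33.9 or at 3.04 and when the compared groups were fitted alone. Over the floors the log2 change ran from -0.04 to -2.42 for WY and from -0.04 to -2.47 for WY+HS. The call for WY was also lost by the methods' test and without control mouse 2. Cnn1 (basic calponin) ranged from the floor to 141 within wild-type mice, and Actg2 (γ-smooth muscle actin) from 177 to 546 over all mice, and neither was called in any comparison.

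The 2 probe sets of Actb went opposite ways. The brightest carries the manufacturer's suffix (f) for probes shared within a gene family, and the second the suffix (s) for probes shared by several transcripts. After HS in null mice the second read 239, 176 and 329.8 against 407, 431 and 351 in controls, all lower (log2 change -0.72 ± 0.21 (SE), adjusted p = 0.0519), where the first was higher in all 3. After WY+HS it read 449, 565 and 419 and was called as higher than after HS (log2 change 0.98 ± 0.21 (SE), adjusted p = 0.00664). Over the 24 mice, which fall into 8 treatment groups and share their arrays between probe sets, the correlation of the 2 Actb probe sets on the log2 scale was -0.30. Actg2, also an f-type probe set, had a correlation of 0.64 with the second Actb probe set and of -0.62 with the first. No direction is therefore given for Actb as a gene, and which transcripts each probe set reads was not tested. The suffix (f) is also carried by the only probe set of Cnn3, the brightest of Actn1 and the second of Myh9. Suffix (s) is also on the brightest probe set of Csrp1 and the only one of Cnn1. Which transcripts these read was not tested either. Actg1 had no call in any comparison, with null controls at 444, 421 and 329 and null HS mice at 467, 419.5 and 455.

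**Figure D5:**
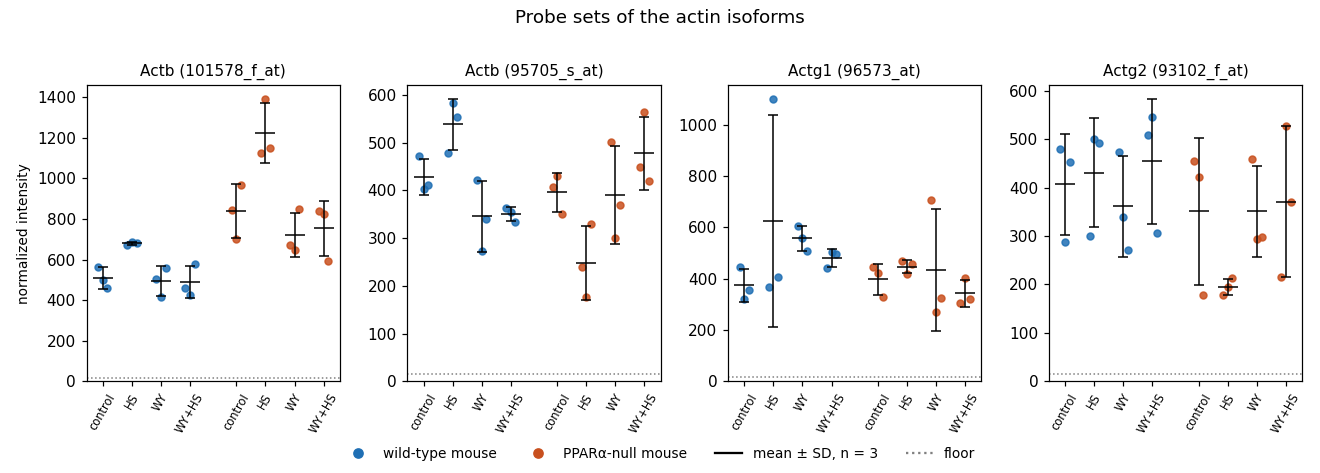
Normalized intensity (linear axis from 0) of both Actb probe sets and those of Actg1 and Actg2 in each mouse of the 8 groups. Points are mice, the mark and bar are the mean ± SD of 3 mice, and the dotted line is the floor of 15.7. In null HS mice the first Actb probe set has its highest group and the second its lowest.

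Rhoa also differed between its probe sets. A dimmer one read 364, 292 and 342 in wild-type controls and 83.9, 96.9 and 80.2 after WY (log2 change -1.93 ± 0.57 (SE), adjusted p = 0.0359), where the brightest read 308, 395 and 381 in controls and 328, 341 and 357 after WY (log2 change -0.07 ± 0.15 (SE), adjusted p = 1). It also read 69.6 in wild-type HS mouse 5 against 319.8 and 384 in the other 2. For WY+HS against HS in null mice, where the brightest Rhoa probe set was lower, this one and another one had log2 changes of 0.54 (adjusted p = 0.795) and 0.43 (adjusted p = 0.674), so Rhoa as a gene has no settled direction there. The other 2 probe sets of Actn1 did not pass in that comparison (log2 changes -0.23 and 0.00), nor did the second of Rhoc (log2 change 0.02), while the second of Myh9 was called as lower (log2 change -1.17 ± 0.24 (SE), adjusted p = 0.00487). The second probe set of Csrp1 had a log2 change of 0.03 for HS in null mice and read 15.7, 17.4 and 24.9 there against 15.7, 15.7 and 25.7 in controls. The second of Lcp1 was at the floor in all wild-type control and WY mice and gives no level there.

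Of the 40 members, 24 were above the floor on all arrays and 2 (Flna and Coro1a) on none. Vcl, the focal adhesion protein with a CArG box shown above, read 133, 135 and 155 in wild-type controls and 212, 164 and 219 after WY, all higher, but did not pass (log2 change 0.48 ± 0.24 (SE), adjusted p = 0.28). Fhl1 ranged from 27.1 to 189 and was not called in any comparison.

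Beyond the members, 2 further lists of the pathway were read, also chosen with earlier results of these data known. Of 18 SRF regulators and early targets with a probe set, 2 rose with HS in null mice (11.1%, against 3.44% of all genes) and none fell (against 4.48%). Egr1, an early response transcription factor, read 25.9, 41.2 and 22.3 in null controls and 81.7, 75.8 and 64.4 after HS (log2 change 1.35 ± 0.40 (SE), adjusted p = 0.0486), with no overlap. It also rose with WY+HS in wild-type mice, from 22.4, 23.2 and 15.7 to 53, 83.5 and 27.8 (log2 change 1.30 ± 0.40 (SE), adjusted p = 0.0441). There it was the lone call of the 18 genes, 5.56% against 6.18% of all genes called as higher. Mcl1, a survival factor, read 314, 282 and 310.3 in controls and 417, 418 and 585 after HS (log2 change 0.63 ± 0.18 (SE), adjusted p = 0.0416). The early response gene Ier2 fell with WY in wild-type mice, from 174, 179.6 and 163 to 67.1, 65.5 and 71.1 (log2 change -1.34 ± 0.18 (SE), adjusted p = 6.27e-05). Ier2 was the lone call of the 18 for WY there, 5.56% against 6.14% of all genes called as lower. Mkl1, the MRTF co-activator itself, ranged from 27.1 to 119 and was not called in any comparison.

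Of 52 other genes of the actin machinery, 5 rose (9.62%, against 3.44% of all genes) and 3 fell (5.77%, against 4.48%) with HS in null mice, and 8 were at the floor on all arrays. Dstn (destrin), which like cofilin severs filaments, read 879, 789.7 and 1027 in controls and 1442, 1416 and 1139 after HS (log2 change 0.57 ± 0.13 (SE), adjusted p = 0.0108). Iqgap1, a scaffold of Rac and Cdc42, read 21.8, 18.2 and 36.8 in controls and 65.2, 68.4 and 69 after HS (log2 change 1.47 ± 0.34 (SE), adjusted p = 0.016). Diaph1, a formin that extends filaments, read 207, 204 and 206 in controls and 301, 295 and 267 after HS (log2 change 0.48 ± 0.13 (SE), adjusted p = 0.0275). In these 3 genes all HS mice lay above all controls. Ilk (integrin-linked kinase) fell, from 102, 169 and 130.0 to 68.1, 75 and 83.1 (log2 change -0.80 ± 0.21 (SE), adjusted p = 0.0254). Against HS, 5 of the 52 were lower after WY+HS in null mice (9.62%, against 5.62% of all genes) and 6 were higher (11.5%, against 7.03%).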

How the data were processed

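The deposited table holds linear probe set intensity values of 24 Affymetrix U74Av2 arrays. By the study's methods, the authors scanned with Affymetrix GeneChip Operating Software and used Rosetta Resolver for the analysis. For probe summary and scaling, the method is not given in the sources used. Of the values 24.1% lie at or below 0, so background had been subtracted, and array medians differed, from 15.2 to 40.5. Subtraction leaves dim genes without a usable level.

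Intensities were quantile normalized, floored at the size of the 10th percentile (15.7) and taken to log2. Group means were fitted to all arrays by limma 3.58.1 (R 4.3.3; residual degrees of freedom 16, prior 0.39), with contrasts of them and Benjamini-Hochberg adjustment over 12422 probe sets in each of 11 comparisons. Probe sets were named through the platform annotation, which gives exactly 1 gene for 10833 of them, several for 396 and none for 1193. The pipeline was tested on simulated data.

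Every member called by its brightest probe set in at least 1 comparison is named with its values, the smooth muscle genes always, and other probe sets where they differ in call. Up to 4 genes past the threshold are named from other lists. The members and lists were chosen with earlier results of these data known. The alternatives changed the scaling, the floor or the filter on dim probe sets, used the F test with Scheffé's test named in the methods, fitted the compared groups alone, counted every probe set, or left out 1 array. Replicates are separate mice. Protein and blood measurements were not analysed here.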

Additional observations from a re-analysis of the deposited data

Results flagged for a closer look

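Of the members, 2 had a response to WY that differed between wild-type and PPARα-null mice by limma's interaction term. The difference of the log2 changes, null minus wild-type, was 1.00 for Rhoc (adjusted p = 0.00698), with a fall of 0.87 on the log2 scale in wild-type mice and a change of 0.13 in null mice. For Cfl1 it was 0.77 (adjusted p = 0.00177), with a fall of 0.35 in wild-type mice and a change of 0.42 in null mice. The second probe set of Rhoc did not show it (log2 difference -0.64).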

How the results depend on the processing

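Counts of called members depended on the scaling and on which arrays shared the estimate of spread. With the arrays scaled to a common median, HS in null mice gave 4 calls (7 as reported), WY+HS against HS in null mice 4 (10), genotype 0 (2) and the WY by genotype interaction 1 (2). With no scaling these were 0, 1, 0 and 0, and WY in wild-type mice gave 1 (5) and WY+HS against WY 2 (0). Unscaled, the log2 changes of Cnn3 and Cfl1 for WY in wild-type mice turned from below 0 to 0.037 and 0.14, beside a shift of 0.40 in the median of probe sets above the floor. The methods' test gave 1 call for HS (0) and 2 for WY in wild-type mice, and 3, 1 (0) and 4 for HS, WY and WY+HS against HS in null mice. In that order these are 2.5%, 5%, 7.5%, 2.5% and 10% of the members. Among all genes the shares were 0.17%, 6.96%, 3.82%, 0.133% and 5.58%. For the other alternatives the share of all genes is not given. Fitted on the compared groups alone, with fewer arrays, WY gave 3, WY+HS 1 (4), HS in null mice 1 (Tagln, none of the 7 reported), WY+HS against HS 0 and genotype 0. The floor at the 5th or the 20th percentile gave 1 call each for the HS by genotype interaction (0), Des and Acta2. Without the 3 high-Acta1 arrays genotype gave 1, and no counts are given where the lone null HS mouse left would be used. Leaving out each array in turn, the counts ran from 3 to 6 for WY and 0 to 1 for WY+HS against WY (both wild-type), 3 to 7 for HS and 5 to 11 for WY+HS against HS in null mice, 1 to 3 for genotype and 0 to 1 for HS by genotype. For the 30 named changes, 280 of the alternative values kept direction and call, 150 kept direction only and 2 reversed. The cause was not tested. No paired analysis was possible because nothing in the labels ties a mouse of one group to a mouse of another. Of all values 42.9% were at the floor, where no level is given.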
